A study of Mus musculus with 12 samples.

Results

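NGN3+ spermatogonia were compared with whole testes over all genes of an Agilent 1-colour mouse array, on which the brightness of a spot follows the amount of a transcript. The comparison used 6 of the 12 arrays of the series, 3 of NGN3+ spermatogonia and 3 of whole testes, and 25332 genes of the 36315 genes and names on the array could be tested. All mice were C57BL/6 and 10 to 11 weeks old. NGN3+ spermatogonia were the GFP+/KIT- cells of Ngn3-EGFP mice, in which GFP fluorescence outlasts Ngn3 transcription, so the gate can hold cells past the peak of the gene. Each NGN3+ sample pooled cells of 2 mice. Sorted samples held 10000 to 20000 cells and whole testes samples 500000, and 25 ng of RNA was labelled for each array. The study's samples also comprise 3 arrays each of GFRα1+ (GFP+ cells of GFRα1-EGFP mice) and KIT+ spermatogonia (GFP+/KIT+ cells, also from Ngn3-EGFP mice). They serve below only to place NGN3+ values.

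Spermatogenesis starts from undifferentiated spermatogonia on the basement membrane of the seminiferous tubule. GFRα1+ cells, which carry the receptor for the Sertoli cell factor GDNF, include the stem cells, and NGN3+ cells are their progeny that await retinoic acid. Retinoic acid turns NGN3+ cells into KIT+ differentiating spermatogonia, which divide several times, enter meiosis as spermatocytes and become haploid spermatids. Spermatocytes and spermatids make up most of the cells of an adult testis, and undifferentiated spermatogonia are rare, so a comparison with whole testes sets a rare early cell against a mixture dominated by its late descendants. In such bulk samples, fewer cells of a type and less RNA per cell cannot be told apart.

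Levels are given on the log2 scale, on which 0 lies close to the 75th percentile of all probes of an array. A ratio is the NGN3+ mean minus the whole testes mean. A gene was called higher or lower when limma's adjusted p, by the Benjamini-Hochberg method over all genes tested, was under 0.05. Where the scanner software did not mark the probe as well above background on some array of the dimmer group, the fold is a bound and is written as "at least". No spot was saturated. The share of probes well above background was 59.5% to 65.1% in NGN3+ samples and 54.8% to 57.6% in whole testes. The NGN3+ arrays lay on the slide scanned on the second scanner and the whole testes arrays on both slides of the first, so slide, scanner and group cannot be told apart within the 6 arrays. For the 4 spike-in control probes with a level above 0 on all 12 arrays, the mean log2 level differed between groups. It was 4.43, 4.58 and 4.41 on NGN3+ arrays and 6.44, 6.36 and 5.88 on whole testes arrays. On GFRα1+ replicates 1 to 3 it was 6.99, 6.61 and 6.13. The KIT+ arrays, on the slide of the NGN3+ arrays, had 4.32, 4.47 and 4.37. The part of this difference in the ratios was not tested. GFRα1+ replicate 3 lay on the slide of the NGN3+ arrays and GFRα1+ replicates 1 and 2 on that of whole testes replicate 1, which allows a fit over all 12 arrays with slide as a block.

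The gene that defines the fraction was among the most enriched of the array. Neurog3, which encodes the basic helix-loop-helix factor NGN3, had levels of 5.64, 5.28 and 4.79 on the NGN3+ arrays and −0.51, −1.51 and −1.13 on the whole testes arrays. The groups lay far apart, with a log2 ratio of 6.28 ± 0.30 (SE, n = 3 arrays a group), or 77.9-fold (adjusted p = 1.74e-06). This ratio ranked 18 among the 25332. The ranking takes genes dim in whole testes at their measured ratio, although only a bound holds for them. The other, dimmer Neurog3 probe gave a ratio of 3.82. Rarg, the retinoic acid receptor RARγ, stood at 4.12, 3.7 and 3.54 in NGN3+ cells and at −0.77, −0.99 and −0.91 in whole testes. Its ratio was 4.67 ± 0.18 (SE), 25.5-fold, at rank 208 in the same ranking. Rara, the receptor RARα, did not pass on its brighter probe (0.33 ± 0.18, adjusted p = 0.111), while its other probe gave 2.05. It passed as higher with the mean of its probes (1.19, limma adjusted p = 9.66e-05) and with the background fitted by normexp (0.425, adjusted p = 0.0213). The call for Rara thus depends on the probe and the setting.

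Markers of neighbouring states were higher than in whole testes as well, at very different levels. Gfra1 stood at −0.96, −1.39 and −1.29 on NGN3+ arrays and at −4.10, −4.04 and −4.05 on whole testes arrays, a ratio of 2.85 ± 0.15 (SE). Its NGN3+ levels lay below the 1.66 mean of GFRα1+ cells. Kit, the receptor that is absent from the surface of the sorted cells, had levels of 1.48, 1.83 and 2.60 against 0.30, −0.27 and −0.26. The Kit ratio was 2.05 ± 0.30 (SE), and NGN3+ replicate 3 was the highest of its group for Kit and for Stra8, a gene switched on by retinoic acid, which read 4.91, 4.92 and 5.72 against 3.69, 3.09 and 3.37. Actb, the cytoskeletal actin often taken as a reference, was slightly lower in NGN3+ cells (−0.55 ± 0.12, adjusted p = 0.00384) and did not pass with slide as a block (−0.49, adjusted p = 0.0539).

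**Figure D1:**
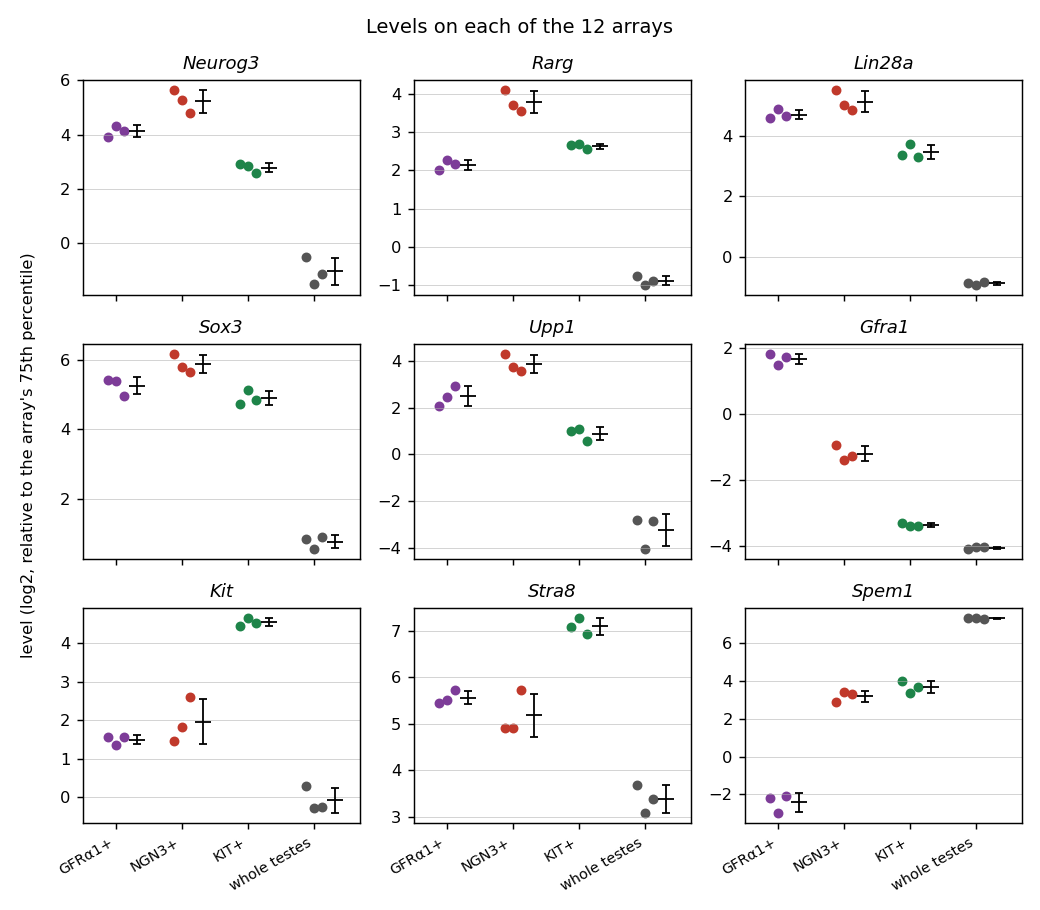
Log2 levels of 9 genes on each of the 12 arrays. Points are arrays, and the dash with bars is the mean ± SD of the 3 arrays of a group. NGN3+ arrays stood highest for Neurog3, Rarg, Lin28a, Sox3 and Upp1, GFRα1+ arrays for Gfra1, KIT+ arrays for Kit and Stra8, and whole testes for the spermatid gene Spem1.

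Most of the transcriptome differed between the fraction and the organ. NGN3+ spermatogonia had more transcript of 11102 genes (43.8% of the 25332 tested) and less of 10283 (40.6%), and 3947 (15.6%) did not pass. With a log2 ratio of at least 2 in size as well, 4430 (17.5%) were at least 4-fold higher and 5517 (21.8%) at least 4-fold lower. With the background fitted by normexp in place of the processed signal, the 4-fold counts fell to 2552 and 3647. The 3 pairs of NGN3+ arrays correlated at 0.986 to 0.992 over these genes and the 9 pairs of an NGN3+ with a whole testes array at 0.733 to 0.800. The median of all ratios was 0.11, so a ratio of 0 lay close to the typical gene. Beside these measured ratios, 1498 genes were well above background on all 3 NGN3+ arrays and on none of the whole testes arrays, and 684 showed the reverse.

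The falls and the rises had different shapes. Log2 ratios from −4 to −3 were found for 2649 genes and those from −3 to −2 for 2280, whereas on the other side 1145 genes lay between 3 and 4 and 2817 between 2 and 3. Below −4 the number dropped to 589, and only 141 called genes reached −4.5 or less, while 251 reached 4.5 or more. The lower ratios thus gathered at an edge, and the rises thinned out gradually. Of the 3146 genes with a level of at least 4 in whole testes, 1326 (42.1%) were at least 4-fold lower in NGN3+ cells, 809 of the 3146 with a ratio between −4 and −3. Of the 2825 genes with such a level in NGN3+ cells, 692 (24.5%) were at least 4-fold higher there. Over all genes, 21.8% were at least 4-fold lower and 17.5% at least 4-fold higher. Choosing genes by a high level in a group in itself favours ratios towards that group, so no conclusion is drawn from these shares.

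**Figure D2:**
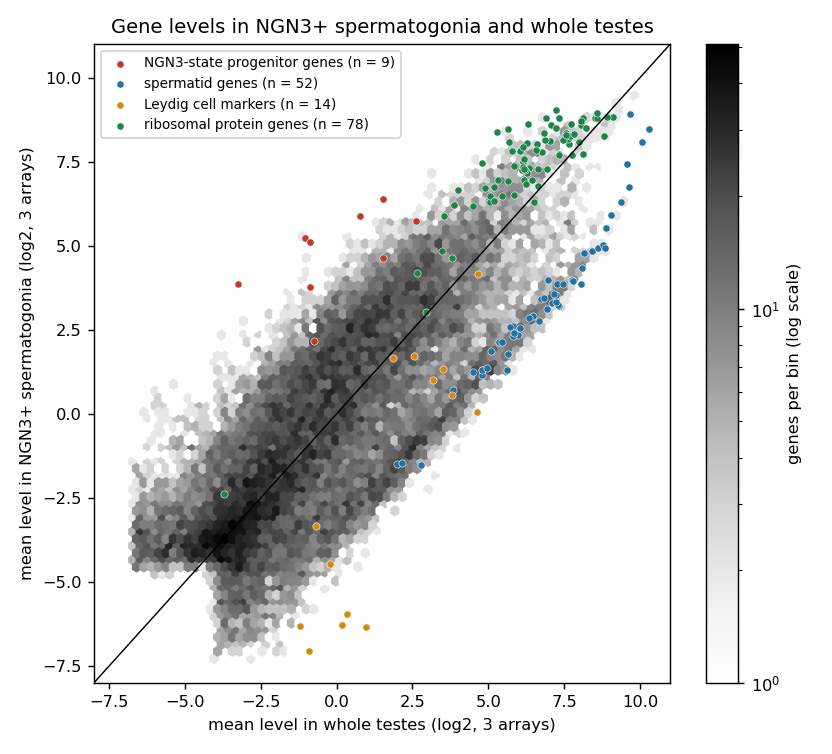
Mean log2 level in whole testes (x axis) against that in NGN3+ spermatogonia (y axis) for the genes tested, as a density of genes with 4 lists as points. The line marks equal levels. The 9 NGN3-state genes lie above it and the 52 spermatid genes along a dense band below it, with Prm1, at −0.74, closest to the line among them.

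The 15 largest measured rises joined germline factors to genes better known from other tissues. Egr4, a zinc finger factor of the EGR family needed for male fertility, led with 6.72, 6.4 and 6.12 in NGN3+ cells against −0.00, −0.48 and −0.01 in whole testes, 95.4-fold (6.58 ± 0.21, SE). Nkx1-1, a homeobox gene, had 2.59, 2.09 and 2.12 against −3.74, −3.89 and −3.87 (6.10 ± 0.17, SE). Sall4, a zinc finger factor of undifferentiated germ cells, had 3.64, 3.37 and 3.26 against −2.29, −2.82 and −2.48 (5.96 ± 0.18, SE), although its other probes ranged from 1.77 to 5.91. No array of one group reached the other group in any of these genes. The remaining genes of the 15, besides Neurog3 and Lin28a, were Crybg1, Prtg (protogenin, a cell surface protein of early embryos), Trib3 (a pseudokinase induced by amino acid shortage), the X-linked homeobox gene Rhox10, Asphd2, Fbxo32 (the ubiquitin ligase atrogin-1 of muscle wasting), Zbtb16, Garem2, Afp (alpha-fetoprotein, a serum protein of fetal liver) and the Wnt receptor Fzd2. Their ratios ran from 5.56 for Fzd2 to 5.96 for Crybg1.

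A further set was so low in whole testes that only a bound could be set. Upp1, uridine phosphorylase of pyrimidine salvage, had 4.31, 3.73 and 3.58 in NGN3+ cells and −2.83, −4.05 and −2.84 in whole testes, where it was well above background on 2 of 3 arrays, and was at least 138-fold higher. Dkk3, a secreted relative of the Wnt antagonists, was at least 106-fold higher (bright on 1 of 3 whole testes arrays), and Ly6g6e at least 106-fold (2 of 3). Nr2e1, the orphan nuclear receptor TLX of neural stem cells, read 2.43, 1.93 and 1.79 and was well above background on no whole testes array, which gives at least 87.4-fold. Nanos2, an RNA-binding factor of the stem cell state, had 1.88, 1.55 and 1.34 and was at least 63.4-fold higher. Fbxo41, Six4, Dbx2, Map3k15 and Cd70 had bounds of 45.6-fold for Cd70 to 68.7-fold for Fbxo41. All 10 genes were also above the whole testes mean in GFRα1+ cells, whose mean levels ran from 0.09 for Six4 to 3.08 for Nanos2.

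All 9 genes on a list of the NGN3-state progenitor were tested and all 9 were at least 4-fold higher, against 17.5% of all genes, with a median log2 ratio of 4.88 against 0.11 over all genes. The list holds Neurog3, whose reporter gated the sort, and Rarg, a marker given beforehand. It was chosen with earlier results of these data known, so the count describes the fraction and tests nothing. Lin28a, an RNA-binding protein that blocks let-7 microRNA processing, had 5.52, 5.01 and 4.83 on NGN3+ arrays and −0.85, −0.93 and −0.85 on whole testes arrays (6.00 ± 0.19, SE). Sox3, an X-linked factor of committed progenitors, read 6.17, 5.79 and 5.65 against 0.85, 0.55 and 0.89 (5.11 ± 0.18, SE). Sohlh1, a factor that drives spermatogonial differentiation, read 6.70, 6.33 and 6.18 against 1.76, 1.32 and 1.48 (4.88 ± 0.19, SE). Nanos3, Ddit4 (an inhibitor of mTORC1) and Sohlh2 had ratios of 3.13, 3.13 and 2.93. NGN3+ replicate 1 was the highest of its group for every gene of the list whose values are given in this paragraph and for Neurog3, Rarg and Upp1.

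The list did not behave uniformly against the other sorted fractions. In a fit over all 12 arrays, NGN3+ cells exceeded GFRα1+ cells in 20.6% of 23754 genes and fell below them in 35.4%. Against KIT+ cells the shares were 16.9% and 17.2% of 24061 genes. Rarg was higher than in GFRα1+ cells by 1.64 on the log2 scale (adjusted p = 4.51e-06), Upp1 by 1.39 and Neurog3 by 1.1. Sox3, Nanos3 and Ddit4 were higher by 0.62, 0.51 and 0.86. Lin28a (0.43, adjusted p = 0.063) and Sohlh1 (0.36, adjusted p = 0.0881) did not pass against GFRα1+ cells, and Sohlh2 was lower in NGN3+ cells by 0.53. Against KIT+ cells, 8 of the 9 were higher, from 0.48 for Sohlh1 to 3.1 for Ddit4, and Sohlh2 was again lower, by 0.58. With slide as a block, Nanos3, Upp1 and Sohlh2 did not pass against GFRα1+ cells (adjusted p = 0.126, 0.129 and 0.120), and without 1 of several single replicates Nanos3 (GFRα1+ cells) and Sohlh1 (KIT+ cells) did not either.

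Genes of the GFRα1 state, the stem cell end of the population, were also mostly higher than in whole testes, 11 of the 13 tested (43.8% of all genes), with 7 at least 4-fold (17.5%) and a median of 2.22. The median was 1.27 with normexp, and among the genes well above background on all 6 arrays 7 were higher, with a median of 1.44. Ret, the signalling subunit of the GDNF receptor, read 0.27, −0.18 and −0.44 on NGN3+ arrays, was well above background on no whole testes array, and was at least 19.4-fold higher. Etv4, a factor induced by GDNF, had 2.99, 2.62 and 2.70 against −1.34, −1.60 and −1.43 (4.23 ± 0.15, SE). Id4 and Etv5 differed less, by 1.44 and 0.94. Lhx1, another GDNF target, did not pass (ratio −0.00 ± 0.19, adjusted p = 0.984), with 2.37 on its other probe, and the single gene that was lower, Plvap (−2.95 ± 0.18), is also a marker of vessel endothelium. Of the 13 genes, Pax7 alone had a higher mean level in NGN3+ than in GFRα1+ cells (−1.78 against −2.94).

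Of 15 genes found across undifferentiated spermatogonia, 14 were higher, 12 of them at least 4-fold, with a median of 3.07 (43.8%, 17.5% and 0.11 over all genes), and Zfp37 (−0.35) did not pass. Zbtb16, which encodes PLZF, a repressor that preserves the undifferentiated state, had 5.75, 5.45 and 5.15 on NGN3+ arrays against −0.12, −0.25 and −0.21 (5.64 ± 0.17, SE). Cdh1, E-cadherin, was well above background on no whole testes array and was at least 19.8-fold higher. Foxo1, a factor of stem cell maintenance, had 5.44, 5.16 and 4.98 against 0.67, 0.19 and 0.39 (4.78 ± 0.18, SE). Uchl1 and Thy1, 2 proteins used to enrich spermatogonia, were higher as well, Uchl1 by 3.60 on the log2 scale and Thy1 at least 5.05-fold (bright on 2 of 3 whole testes arrays).

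Genes of differentiating spermatogonia were split: 10 of 12 were higher, 7 of them at least 4-fold, and 2 were at least 4-fold lower (43.8%, 17.5% and 21.8% of all genes). Dmrt1, a factor that holds back meiosis, had 3.62, 3.43 and 3.39 against −0.10, −0.42 and −0.18 (3.72 ± 0.14, SE). Ccnd2, a cyclin of the G1 phase, had 3.36, 2.98 and 3.13 against −0.63, −1.14 and −0.79 (4.01 ± 0.18, SE), and Crabp1, a retinoic acid binding protein, a ratio of 3.46. Dmrtb1, which controls the step from mitosis to meiosis, read 1.15, 2.05 and 2.46 against 4.58, 4.96 and 4.84 and was lower by 2.90 (adjusted p = 6.68e-05). Prss50, a serine protease gene, was lower by 2.02.

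Among 23 germ cell genes shared by many stages, 15 were higher and 5 lower (43.8% and 40.6% of all genes), with a median of 1.58. Dnd1, an RNA-binding protein that keeps germ cells alive, had 5.38, 5.02 and 4.86 against 0.44, 0.28 and 0.49 (4.68 ± 0.16, SE). Fkbp6 and Mov10l1, both of the piRNA pathway, had ratios of 3.56 and 3.24. The lower genes include Gtsf1 (−1.82), Tdrd7 (−1.71), Tdrd6 (−3.14) and Ddx25 (−1.12). Ddx4, the general germ cell helicase, had 5.12, 5.01 and 4.99 against 4.67, 5.29 and 5.16, and its groups overlapped (ratio −0.00 ± 0.18, adjusted p = 1).

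**Figure D3:**
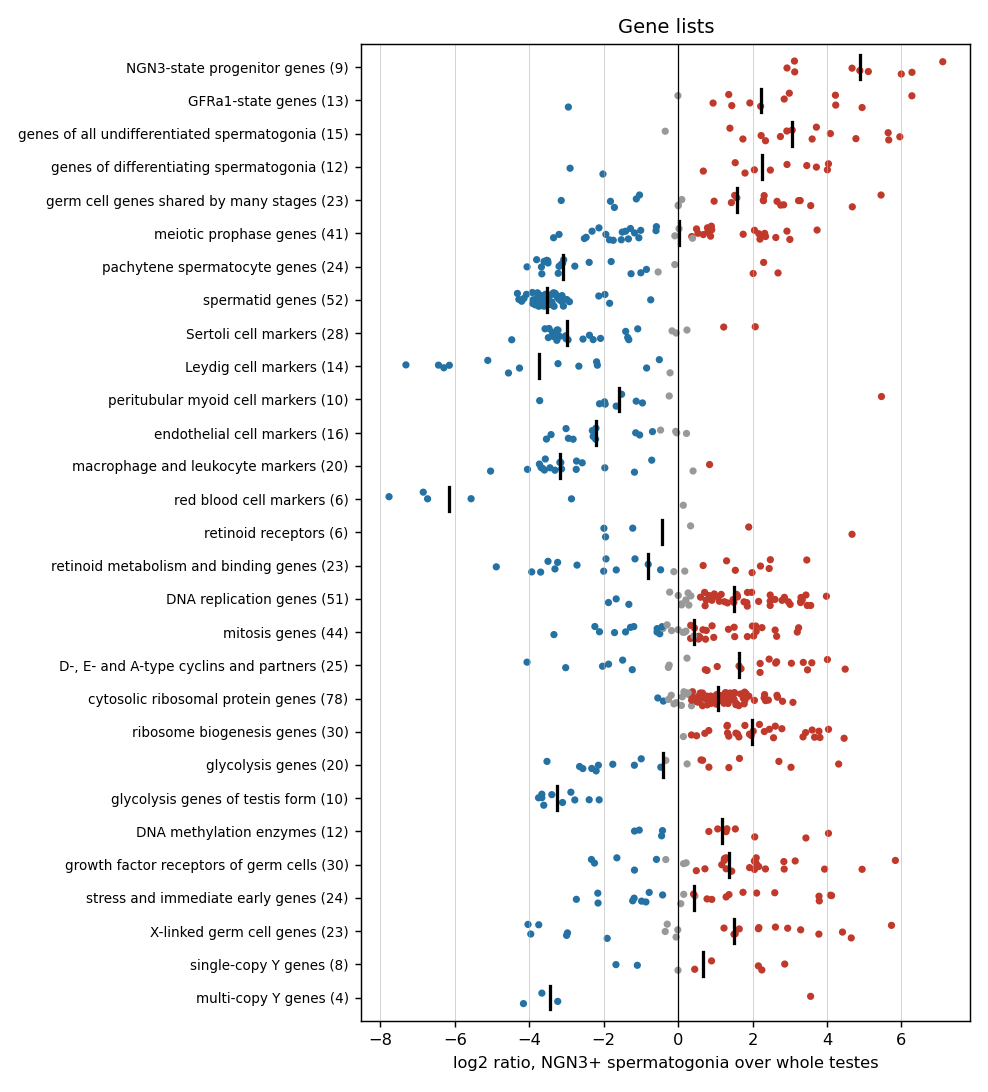
Log2 ratio of NGN3+ spermatogonia over whole testes for the genes of 29 lists, with the number tested in brackets. Red points passed the test as higher, blue as lower and grey did not pass, and the black bar is the list's median. Ratios of genes dim in one group are drawn at their measured value, although only a bound holds for them. Spermatid genes lie around their median of −3.52.

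Retinoid genes did not move as a block. Of the 6 retinoid receptors, Rarg and Rxrb were higher (Rxrb 1.90 ± 0.12, SE) and Rxra, Rarb and Rxrg lower (−1.95, at least 3.98-fold with Rarb bright on 2 of 3 NGN3+ arrays, and −1.22). The Rarb and Rxrg calls depend on the probe, since their other probes gave 2.49 and 2.27 and the means of each gene's probes 0.25 (adjusted p = 0.491) and 0.53 (adjusted p = 0.0713), and neither passed with slide as a block. Of 23 genes of retinoid metabolism and binding, 8 were higher and 13 lower (43.8% and 40.6% of all genes), and among those well above background on all 6 arrays 3 were higher. Crabp1 and Cyp26a1 were higher, the latter an enzyme that degrades retinoic acid, with −1.33, −1.52 and −1.23 against −3.26, −3.85 and −4.30, at least 5.45-fold (bright on 2 of 3 whole testes arrays). Rdh10, which makes retinal from retinol, was at least 3.94-fold higher (bright on 1 of 3 whole testes arrays), and the retinol carrier Rbp4 was higher by 1.54. Aldh1a1, a retinoic acid synthesizing enzyme of Sertoli cells, had −0.03, 0.36 and −0.37 against 4.03, 4.09 and 3.63 (−3.93 ± 0.22, SE), and Aldh1a2, its counterpart in late germ cells, was lower by 1.16. Stra6, the membrane receptor for the retinol carrier, was well above background on no NGN3+ array and was at least 4.75-fold lower.

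The machinery of DNA replication was higher as a list, 40 of 51 genes, 17 of them at least 4-fold, against 3 lower, with a median of 1.5. Over all genes the shares were 43.8%, 17.5% and 40.6%. Rfc5, a subunit of the clamp loader, had 4.53, 4.37 and 4.41 against 1.01, 0.75 and 0.86 (3.56 ± 0.13, SE). Cdt1, which licenses origins, had 5.07, 4.97 and 5.10 against 1.04, 0.83 and 1.32 (3.98 ± 0.16, SE), and the polymerase genes Pola1 and Pold1 had ratios of 3.29 and 3.30. Rfc2 (−1.87), Chaf1a (−1.66) and Pole3 (−1.32), whose products act beside those of the others, were lower. Pcna, the sliding clamp, differed by 0.97.

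Of 44 mitosis genes, 24 were higher, 12 lower and 8 did not pass, with a median of 0.43, against 43.8% higher and 40.6% lower over all genes. Mad2l1 and Bub1b of the spindle checkpoint were higher by 3.20 and 2.25, and Cenpa, the histone of centromeres, by 3.24. Kif2c, a microtubule depolymerase, had 2.66, 3.15 and 3.36 against 6.4, 6.31 and 6.45 (−3.34 ± 0.19, SE), and Foxm1, Plk1 and Ccnb2, which drive entry into division, were lower by 2.24, 1.71 and 1.28. Of 25 cyclins and partners, 16 were higher and 6 lower, beside the same shares over all genes. E2f6, a repressor of meiotic genes in somatic cells, had 4.43, 4.23 and 4.09 against −0.13, −0.41 and −0.18 (4.49 ± 0.15, SE), and E2f1 a ratio of 3.48. Among those lower were the CDK inhibitors Cdkn1c (−1.87) and Cdkn2d (−2.03).

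Ribosome genes were mostly higher. Of 78 cytosolic ribosomal protein genes, 64 were higher, 9 of them at least 4-fold, and 2 lower, with a median of 1.06. Among all genes the shares were 43.8%, 17.5% and 40.6%, so rises of at least 4-fold were rarer in this list than among all genes. Rpl10a had 8.65, 8.32 and 8.15 against 5.25, 5.19 and 5.42 (3.09 ± 0.16, SE). The genes that were lower, Rpl41 (−0.55) and Rpl36 (−0.40), differed little, and neither passed with slide as a block. Many ribosomal protein genes have processed copies elsewhere in the genome, so their probes may read several loci. Of 30 ribosome biogenesis genes, 29 were higher, 15 of them at least 4-fold, and none lower, beside the same shares among all genes. Their median ratio was 1.99. They included Mycn, a MYC family factor that raises ribosome production, with 3.24, 3.15 and 3.01 against −1.06, −1.63 and −1.29 (4.46 ± 0.17, SE), Nop16 (3.78), Utp20 (3.67) and Pes1 (3.36).

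Among 12 DNA methylation enzymes, 8 were higher and 4 lower (43.8% and 40.6% of all genes). Dnmt3b, a de novo methyltransferase, had 5.11, 4.82 and 5.04 against 1.32, 0.53 and 1.0 (4.04 ± 0.21, SE), with 4.01 and 4.21 on its other probes, and Dnmt1, the maintenance enzyme, had a ratio of 3.43. Dnmt3l, a cofactor of de novo methylation, was lower by 1.04. The demethylating dioxygenase genes Tet1 (−1.17), Tet2 (−0.42) and Tet3 (−0.44) were lower on their brightest probes. For Tet3 the other probes gave 2.60 and 2.99 and the mean of its probes 1.72 (adjusted p = 1.9e-05), for Tet1 the other probe gave 0.40, and for Tet2 the fit with slide as a block gave 1.86 (adjusted p = 0.0174), so no direction could be set for Tet2 and Tet3. In several alternatives 2 of the 12 enzymes were lower in place of 4. These were quantile normalization, no dim-probe filter, all 12 arrays, slide or replicate as a block, and the methods' t-test. Leaving out NGN3+ replicate 2, NGN3+ replicate 3 or whole testes replicate 3 gave 2 as well.

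Receptors for growth factors were mostly higher, 22 of 30, 13 of them at least 4-fold, with 5 lower, where all genes gave 43.8%, 17.5% and 40.6%. Bmpr1b, a BMP receptor, read 0.28, 0.11 and −0.10, was well above background on no whole testes array, and was at least 22.5-fold higher. Acvr2b, an activin receptor, had 5.58, 5.34 and 5.31 against 1.73, 1.18 and 1.51 (3.94 ± 0.17, SE), and Fgfr1 a ratio of 3.15, with 0.29 to 3.00 on its other probes. Insr, Notch1, Pdgfrb and Csf1r were lower, Insr by at least 5.02-fold and Pdgfrb by at least 4.71-fold. Notch1 and Csf1r were lower by 1.65 and 1.17 on the log2 scale. With slide as a block 3 of the list were lower, and Insr (−1.95, adjusted p = 0.0807) and Csf1r (−0.28, adjusted p = 0.540) did not pass.

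Of 24 stress and immediate early genes, which can respond to tissue dissociation, 12 were higher and 9 lower (43.8% and 40.6% of all genes), with a median of 0.43. With slide as a block 4 were lower, and with normexp the median was −0.05. Egr1 had 3.62, 3.21 and 3.11 against −0.91, −0.50 and −1.03 (4.12 ± 0.20, SE), Egr2 a ratio of 4.09, Socs3 3.79 and the heat shock gene Hspa1a 3.79. Klf4 was lower by 2.15, Dnajb1 by 0.78 and Hsph1 by 0.98, although the other Hsph1 probe gave 1.96. The sorted samples had been dissociated, and the part of this step in the values was not tested.

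Meiotic genes formed no common direction. Of 41 genes of meiotic prophase, 19 were higher, 19 lower and 3 did not pass, with a median of 0.02, close to the 43.8%, 40.6% and 0.11 of all genes. Rec114, of the machinery of meiotic DNA breaks, was higher by 3.73, Trip13 by 3.00 and the X-linked Tex11 by 2.17. Rec8, the meiotic cohesin, had 2.93, 3.25 and 3.34 against 5.44, 5.82 and 5.81 (−2.52 ± 0.17, SE), Psmc3ip was lower by 2.47, Msh4 by 2.13 (0.23 on its other probe) and Syce1, of the synaptonemal complex, by 1.94.

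Genes of pachytene spermatocytes were lower in 19 of 24 cases (40.6% of all genes), 15 of them at least 4-fold (21.8%), with a median of −3.09. Adam3, a sperm surface protein, had 4.0, 4.65 and 4.95 against 7.97, 8.10 and 8.03 (−3.50 ± 0.24, SE), and Bcl2l14 was lower by 3.80. Slc25a31 (2.30), an ADP/ATP carrier of germ cells, Cpeb1 (2.02), a regulator of mRNA polyadenylation, and Ccnb1ip1 (2.68), a crossover protein, were higher.

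Spermatid genes moved as a tight group. All 52 tested were lower, 49 of them at least 4-fold, against 40.6% lower among all genes, and the middle 50% of their ratios lay between −3.78 and −3.26. Spem1, a protein of cytoplasm removal in spermatids, had 2.87, 3.41 and 3.30 against 7.38, 7.33 and 7.29 (−4.14 ± 0.17, SE). Cabs1 and Spata3 were lower by 4.20 and 4.07 and Dnajb3 by 3.37, so these genes stood in NGN3+ samples at 5.43% to 9.70% of their whole testes level. The median ratio of −3.52 corresponds to 8.73%. The brightest members departed from the rest. Prm1, a protamine that packs sperm DNA, read 8.93, 9.04 and 8.78 against 9.47, 9.84 and 9.65 (−0.74 ± 0.15, SE, adjusted p = 0.00211). Prm2, Tnp1 and Tnp2 (transition proteins) stood at 27.9%, 25.6% and 22.8% of theirs.

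No spermatid gene of the list was dim in NGN3+ samples: each was well above background on all 3 arrays. Their summed level, on the linear scale in units of an array's 75th percentile, was 1739 to 2285 on NGN3+ arrays, 2143 to 2860 on KIT+ arrays and 10942 to 12748 on whole testes arrays, but 58.2 to 103 on GFRα1+ arrays. GFRα1+ replicate 3, which shared the slide of the NGN3+ arrays, had a median spermatid level of −1.58, against −1.65 and −2.09 on the other GFRα1+ arrays and 2.89, 3.55 and 3.31 on the NGN3+ arrays. The median difference of the list from whole testes was −3.96 in NGN3+ replicate 1, −3.18 in replicate 2 and −3.46 in replicate 3. The part of RNA from spermatids in the NGN3+ values was not tested.

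**Figure D4:**
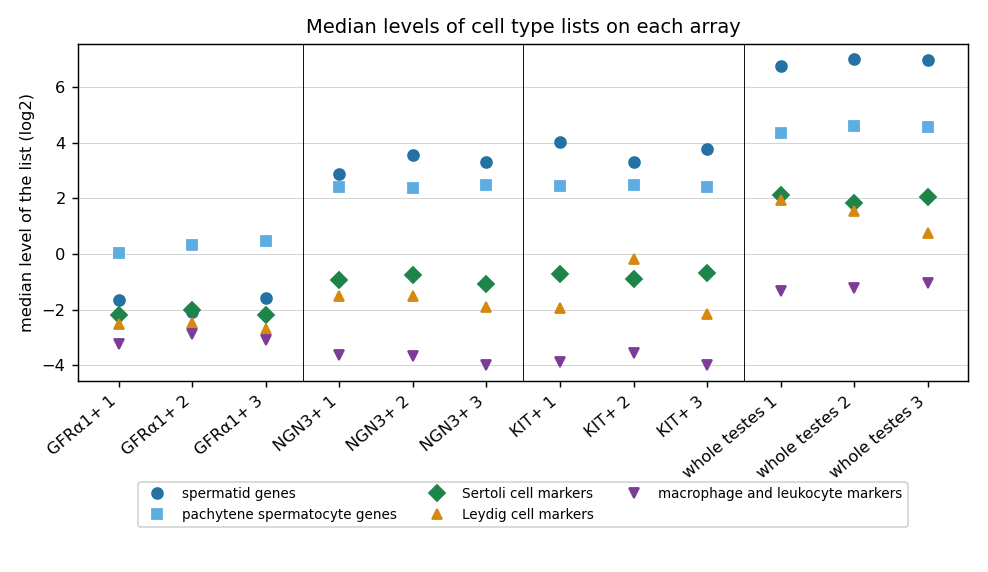
Median log2 level of the tested genes of 5 lists on each of the 12 arrays. On the NGN3+ and KIT+ arrays the spermatid median lies from 2.89 to 4.04, between the GFRα1+ arrays, from −2.09 to −1.58, and the whole testes arrays, from 6.77 to 7.01, while macrophage and leukocyte markers lie from −4.01 to −2.88 on the sorted arrays.

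Markers of somatic testis cells were mostly lower too. Of 28 Sertoli cell markers, 23 were lower, 19 of them at least 4-fold, with a median of −2.99, against 40.6% and 21.8% of all genes. Inha, the inhibin alpha subunit, had −1.04, −0.86 and −1.05 against 2.42, 2.07 and 2.31 (−3.25 ± 0.14, SE). Fshr, the receptor for follicle stimulating hormone, was well above background on no NGN3+ array, Cldn11 of the tight junction was lower by 3.58 and Sox9 by 2.56. Trf (2.07), the iron carrier transferrin, and the transporter gene Abcb1b (1.23) were higher. The summed level of the list was 109 to 153 on NGN3+ arrays, 112 to 122 on GFRα1+ arrays and 610 to 723 on whole testes arrays.

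Several markers of Leydig cells, which make testosterone between the tubules, fell to background. Of 14 markers, 13 were lower (40.6% of all genes) and 5 were well above background on no NGN3+ array. Among those well above background on all 6 arrays, 7 were lower. Hsd3b1, a steroid dehydrogenase, had −5.50, −6.40 and −7.16 against 2.04, 1.1 and −0.27 and was at least 59.7-fold lower. Cyp11a1, which starts steroid synthesis from cholesterol, was at least 39.0-fold lower, Hsd3b6 at least 34.5-fold and Akr1cl at least 16.2-fold. Whole testes replicate 3 had the lowest level of the 3 whole testes arrays for each of these 4 genes. Star (−2.67), Cyp17a1 (−2.17) and Nr5a1 (−3.23) stayed well above background in NGN3+ samples.

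The remaining somatic lists were lower in most members, against 40.6% of all genes. Of 20 macrophage and leukocyte markers, 18 were lower, among them C1qc (at least 9.05-fold), H2-Ab1 (−3.68) and Lyz1 (−3.18), and 6 were well above background on no NGN3+ array. Genes dim in NGN3+ samples were tested only because whole testes had them well above background. Among those well above background on all 6 arrays, 10 were lower and 2 higher. Cd14 was higher (0.84 ± 0.14), but did not pass with slide as a block (0.66, adjusted p = 0.0976). Of 10 markers of peritubular myoid cells, 8 were lower, or 5 with slide as a block, including Actg2 (−3.72), Myl9 (−1.98), Cnn1 (−1.96) and Des (−0.96). Ptch1, the Hedgehog receptor, which the list holds as a myoid gene, was at least 44.1-fold higher, with 1.68, 1.40 and 1.08 on NGN3+ arrays and a bright spot on 1 of 3 whole testes arrays. Of 16 endothelial markers, 12 were lower, including Plvap, Sox17 (−3.41), Kdr (−1.03) and Tie1 (at least 4.36-fold), but with slide as a block 4 were, and Sox17 (−0.33), Kdr (−0.04) and Tie1 (−1.37) did not pass. Of 6 red blood cell genes, 5 were lower, or 2 among those well above background on all 6 arrays. Hbb-bt, a beta globin, read −6.64, −6.73 and −6.98 against 1.22, 0.82 and 0.90 and was at least 60.7-fold lower, and Hba-a1 was at least 101-fold lower.

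The lowest ratio of the array, −8.81 ± 0.39 (SE), belonged to a probe named for the kinase gene Jak3, at chromosome 8, 74214085 to 74214144 in mm9, with −3.52, −3.53 and −3.33 against 5.75, 5.94 and 4.37. A second Jak3 probe gave −3.01. In the RefSeq gene table Insl3, a hormone gene of Leydig cells, lies within the span of Jak3 and ends at the same base, so the transcript read by the first probe is uncertain. Next came Hba-a2, an alpha globin, with −1.13, −3.26 and −3.49 against 4.46, 3.99 and 4.20 (−6.85 ± 0.58, SE), and Bhmt, a methyltransferase of methionine metabolism (−6.68 ± 0.42), whose other probes gave −6.86 and −6.66. Of the other genes among the 15 lowest that were measured on all arrays, Klk1b16, Klk1b24 and Klk1b5 are kallikreins, proteases that include Leydig cell products and whose near-identical sequences may share probes. Dcn, decorin of connective tissue, was lower by 5.31 and Lcn2, an iron-scavenging protein, by 5.21. Ssxb2, Gk, Syt10, Dydc1, Fam229a, Acyp1 and Ccdc175 completed the set, from −5.58 for Ssxb2 to −4.75 for Ccdc175. The other Acyp1 probes ranged from −5.55 to −1.01. Among genes not measured on every NGN3+ array, the largest bounds were those of Klk1b27 (at least 111-fold), Hba-a1 and Speer4e, a testis gene of a multicopy family (at least 75.7-fold), followed by Hbb-bt, Hsd3b1, Cstdc2 (at least 49.98-fold), Cyp11a1, Vcam1 (at least 37.0-fold), Hsd3b6 and Serpina3g (at least 32.6-fold).

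Several enzymes and structural proteins have a general form and a form made by late male germ cells, and these pairs separated in the comparison. Of 24 pairs in which both members were tested, the testis form was lower in 21 and higher in 3, and the general form higher in 19 and lower in 4. Among all genes tested, 43.8% were higher and 40.6% lower. In 21 pairs the general form had the higher ratio. Ccna2, the cyclin of S phase, had 1.61, 1.38 and 1.64 against −0.79, −1.39 and −1.14 (2.65), and Ccna1, its counterpart in spermatocytes, −1.06, −0.40 and 0.61 against 3.72, 3.89 and 3.71 (−4.06). The respiratory chain subunit Cox8a was higher by 2.81 and its testis form Cox8c lower by 3.65. Centrin 2 (Cetn2) and centrin 1 (Cetn1) had ratios of 2.69 and −3.50, Pdha1 and Pdha2 of pyruvate dehydrogenase 3.22 and −2.78, and Cox6b1 and Cox6b2 2.68 and −2.90. Ubl4a and Ubl4b had 0.73 and −4.45, and the chaperones Hspa8 and Hspa2 1.97 and −3.20. In the other direction, Slc25a31 was higher by more than its general form Slc25a5 (2.30 against 0.58), and for lactate dehydrogenase and glycerol kinase both forms were lower (Ldha −2.56 and Ldhc −2.39, Gk −4.98 and Gykl1 −3.64).

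The 2 lists of glycolysis genes differed from each other. All 10 genes of the testis-form list were at least 4-fold lower (21.8% of all genes), with a median of −3.25. Besides glycolytic enzymes, this list holds the transporter genes Slc2a5, Slc2a8 and Slc16a7, and Pdha2 of pyruvate dehydrogenase. Gapdhs is also on the spermatid list, and Pgk2, Ldhc and Pdha2 are on the pachytene list, so the lists are not independent. Gapdhs, the sperm form of glyceraldehyde phosphate dehydrogenase, had 4.59, 5.17 and 5.07 against 8.63, 8.59 and 8.59 (−3.66 ± 0.17, SE), whereas Gapdh had 7.46, 7.19 and 7.26 against 5.69, 5.58 and 5.68 (1.65 ± 0.13, SE). Pgam2 (−3.75), Pgk2 (−3.66) and Aldoart2 (−3.61) were lower to a like degree. Of 20 general glycolysis genes, 8 were higher and 10 lower (43.8% and 40.6% of all genes), with Aldoc (4.31), the glucose transporter gene Slc2a1 (3.03) and Pgam1 (2.71) at one end and Tpi1 (−3.52), Hk1 (−2.65), Pfkm (−2.20) and Ldhb (−2.14) at the other.

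**Figure D5:**
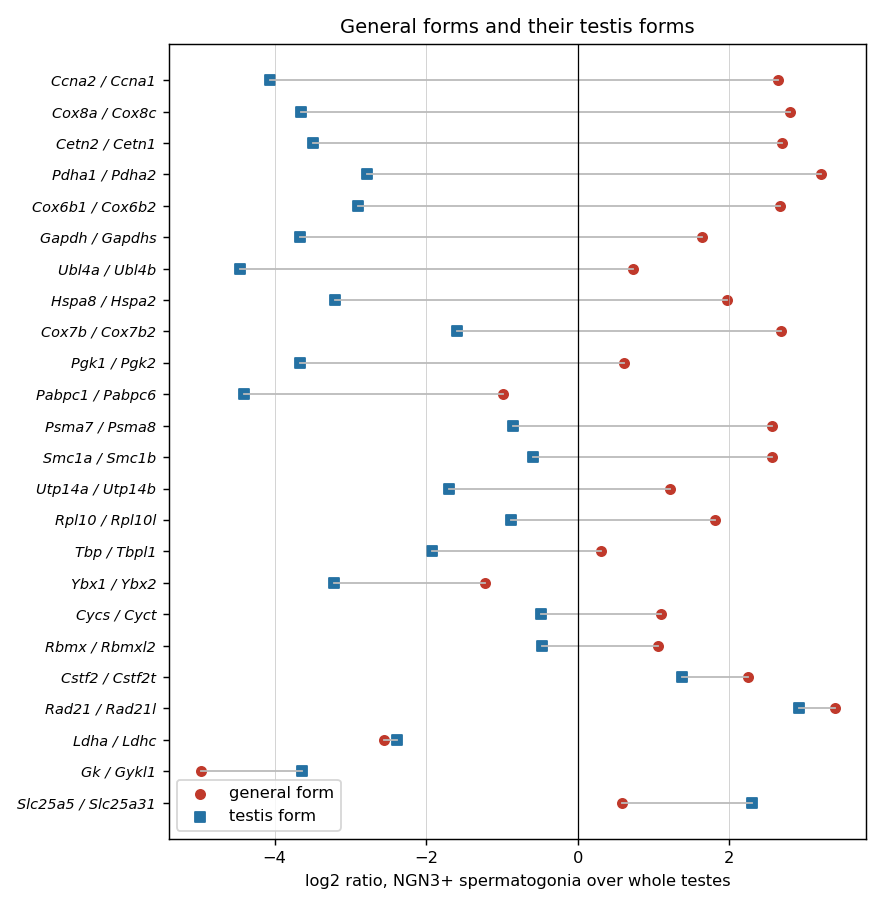
Log2 ratios of NGN3+ spermatogonia over whole testes for 24 pairs of a general form (red circles) and a testis form (blue squares), ordered by the difference between the forms. In 21 pairs the red point lies to the right of the blue one, and the largest gap is that of Ccna2 and Ccna1.

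X-linked genes are silenced in the meiotic prophase, and many are again weakly expressed in spermatids, so the X chromosome was examined apart. By the probe positions in the files, 1084 X-linked genes were tested, with a median ratio of 0.33, within the range of the 19 autosomes from −0.20 (chromosome 14) to 0.33 (chromosome 11). At least 4-fold higher were 258 (23.8%), above the 14.2% to 21.1% of the autosomes. With normexp 141 were, while the count over all genes fell as well, from 4430 to 2552. No autosomal shares are given for that setting. At least 4-fold lower were 271 (25.0%), within the autosomal range of 17.7% to 27.1%. Of 23 X-linked germ cell genes, 13 were higher and 6 lower, against 43.8% and 40.6% of all genes. Rhox10, Mageb4 (4.65), Nxf2 (3.78), an mRNA export factor, and Taf7l (2.94) of the transcription machinery were higher. Mageb4 had 5.64, 5.33 and 5.17 against 0.90, 0.46 and 0.83. Tex13a (−4.03), Fthl17a (−3.96), Tex28 (−3.0) and Dmrtc1a (−2.97) were lower, and Tex13a had 1.34, 1.94 and 1.76 against 5.53, 5.71 and 5.90.

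Genes of the Y chromosome moved both ways. Of 8 single-copy Y genes, 5 were higher (43.8% of all genes), among them Uba1y, a ubiquitin-activating enzyme, with 5.79, 5.59 and 5.54 against 2.87, 2.73 and 2.73 (2.86 ± 0.13, SE), Usp9y (2.16) and Uty (0.90). Kdm5d also passed and was well above background on all 3 NGN3+ arrays but on no whole testes array. With whole testes values raised to the lowest value well above background, its ratio was −0.06, so no fold could be set. With normexp 3 were higher, and Uty (0.18, adjusted p = 0.228) and Kdm5d (adjusted p = 0.0764) did not pass. The zinc finger genes Zfy2 and Zfy1 were lower by 1.67 and 1.1. Of 4 multi-copy genes, Rbmy, a splicing factor of spermatogonia, was higher (3.56), and Ssty1, Sly and Ssty2, which spermatids transcribe, were lower (−4.16, −3.66 and −3.23). Probes of such families read several copies. Among 95 genes placed on unassembled Y sequence, 77 were lower and 2 higher (40.6% and 43.8% of all genes). Their median was −2.86, against 0.11 over all genes.

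Transcripts without a protein differed from coding genes. Of 969 genes that the RefSeq table lists as long non-coding RNAs, 629 (64.9%) were lower and 236 (24.4%) higher, and 464 (47.9%) were at least 4-fold lower, with a median of −1.74. Of 15865 protein-coding genes, 38.8% were lower and 48.3% higher, and 21.2% were at least 4-fold lower, with a median of 0.30. Pseudogenes leaned the other way, with 55.7% of 1349 higher, and probes of pseudogenes may also read their parent genes.

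The promoters of the lists differed in their content of CG dinucleotides, and 4 are printed to show it. Promoter sequence was read from RefSeq (GRCm38.p6), from 250 bases before to 50 after a gene's start, which was found for 12727 (80.2%) of the protein-coding genes tested. The printed stretches are the 250 bases before the start, 5′ to 3′ on the gene's strand, with every CG dinucleotide, the site of DNA methylation, in capitals. They belong to Neurog3 (chr10:62132840-62133089, plus strand), to Lin28a (chr4:134018817-134019066, minus strand), and to the members of the replication and spermatid lists with the smallest adjusted p and a sequence, Rfc5 (chr5:117389024-117389273, minus strand) and Spem1 (chr11:69822166-69822415, minus strand).
Neurog3: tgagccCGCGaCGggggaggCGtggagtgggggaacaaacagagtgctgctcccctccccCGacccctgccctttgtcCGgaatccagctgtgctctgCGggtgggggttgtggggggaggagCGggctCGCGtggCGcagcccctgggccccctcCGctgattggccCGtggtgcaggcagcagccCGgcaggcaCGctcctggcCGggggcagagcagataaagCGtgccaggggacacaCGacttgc
Lin28a: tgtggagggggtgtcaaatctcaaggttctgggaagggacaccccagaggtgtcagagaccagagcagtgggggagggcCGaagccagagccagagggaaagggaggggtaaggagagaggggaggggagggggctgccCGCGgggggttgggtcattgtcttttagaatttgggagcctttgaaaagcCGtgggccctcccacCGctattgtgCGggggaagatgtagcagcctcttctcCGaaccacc
Rfc5: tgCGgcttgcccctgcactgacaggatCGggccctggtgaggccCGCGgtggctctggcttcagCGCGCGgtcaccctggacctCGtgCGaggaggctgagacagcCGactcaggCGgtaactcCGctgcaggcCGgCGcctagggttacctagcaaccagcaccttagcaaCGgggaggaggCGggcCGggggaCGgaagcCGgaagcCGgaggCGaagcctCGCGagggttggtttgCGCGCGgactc
Spem1: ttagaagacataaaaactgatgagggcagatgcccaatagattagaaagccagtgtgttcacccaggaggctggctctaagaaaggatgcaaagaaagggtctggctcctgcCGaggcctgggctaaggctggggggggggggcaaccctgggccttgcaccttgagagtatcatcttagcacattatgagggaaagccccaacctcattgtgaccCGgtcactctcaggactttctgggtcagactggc
Rfc5 carried 26 CG dinucleotides in this stretch, Neurog3 18, Lin28a 7 and Spem1 2. Over the whole window, the median ratio of observed to expected CG was 0.17 for 45 spermatid genes, 0.84 for 42 DNA replication genes and 0.84 for 25 ribosome biogenesis genes, against 0.71 over the 12727 genes tested. For the 8 NGN3-state genes with a sequence it was 0.44, and for the 2770 genes at least 4-fold higher 0.76. The 8-base ETS motif CCGGAAGT, searched on both strands, was in 21.4% of the replication promoters, in 5 of the 25 ribosome biogenesis promoters and 2.22% of the spermatid promoters, against 6.96% of the genes tested and 4.0% of all 27025 promoters of that length. A TATAAA on either strand was in 8.89% of the spermatid promoters and 8.73% of the genes tested, against 14.2% of all promoters. The same comparison is void for the genes at least 4-fold lower as a whole, since 79.9% of their protein-coding members, under the 80% set as the minimum, had a sequence.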

How the data were processed

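The authors hybridised cyanine-3 labelled RNA to Agilent mouse arrays and deposited each array's scanner intensity values (Agilent Feature Extraction 10.7.3.1 per the labels, with another release in the file headers of the slide that held the NGN3+ arrays) and a table of log2 values made in GeneSpring. Set against the scanner values, the deposited log2 values equal the log2 processed signal minus 1 constant per array, within 0.01, for at least 99.6% of probes. The constant lay close to the array's 75th percentile, for example at an intensity of 564.2 against 567.5 for KIT+ replicate 2. The brightest probe, by its mean level over both groups, stood for a gene, and the gene was tested if all 3 arrays of a group had it well above background. Names came from RefSeq by accession or symbol for 18226 of the 25332 genes tested, and from the array files for 7106. Groups were compared with limma 3.58.1 in R 4.3.3 (lmFit and eBayes), adjusted by the Benjamini-Hochberg method over all genes tested. For a bound, the dimmer mean took, on each array, the higher of the gene's own value and the lowest well-above-background value. An exact permutation test of 3 against 3 arrays cannot go below p = 0.1. NGN3+ replicates are separate pools per the labels; the labels do not say whether the whole testes samples came from separate mice, so p-values measure the spread between these samples, and 3 arrays a group limit the precision.

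The text names the markers given, 6 genes named by the study, the 15 highest and 15 lowest ratios measured on all 6 arrays, the 10 largest bounds each way, up to 4 members per list and direction with the smallest adjusted p, and 8 pairs. Other list members and pairs named were chosen after their values were seen. The members and the 29 lists were chosen with earlier results of these data known. The test was checked on simulated data. Alternatives were background correction (normexp), normalization, dim-probe filters, a floor, probe averaging, all 12 arrays, slide and replicate blocks, the methods' t-test and leaving out each array. A gene and a pair of forms are not reported here.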

Additional observations from a re-analysis of the deposited data

How the results depend on the processing

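Directions and sides of the threshold held in 4207 of the recomputed values of single genes. Of the others, 40 no longer passed, 2 newly passed (both of Rara) and 7 turned. With normexp on the median signal, 2552 genes were at least 4-fold higher and 3647 lower, and 141 X-linked genes were at least 4-fold higher; the cause was not tested. The remaining alternatives moved none of these counts by over 1.5 times: without single replicates 10658 to 10856 genes were higher and 9824 to 10277 lower, and 4210 to 4556 and 5415 to 5567 at least 4-fold. With slide as a block over 12 arrays, an indirect contrast through GFRα1+ arrays, 9278 were higher and 8336 lower. The replicate numbers did not pair the samples (correlations 0.06, 0.06 and 0.01 between same-numbered arrays), and a replicate block gave 10893 higher and 10104 lower. The log2 ratio turned to −0.0635 for Kdm5d with a floor; to 0.49 for Hsph1, 0.25 for Rarb, 0.53 for Rxrg and 1.72 for Tet3 with the mean of a gene's probes; and to 1.86 for Tet2 and 0.40 for Tet3 with slide as a block. Cause was not tested. Counts of list members moved by over 1.5 times in 39 recomputed values and did not in 1063. List medians moved by over 1 SD between NGN3+ replicates in 73 and did not in 478, with a change of sign for the stress genes (normexp) and for the retinoid receptors (0.33 when dim genes were left out and 0.86 with the mean of a gene's probes). Against the other fractions, 165 values kept their call, 14 no longer passed and 1 newly passed. Genes near background have bounds only.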
